A study of Mus musculus with 6 samples.

Results

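This account covers 9 genes of cell junctions that join oocytes to granulosa cells and granulosa cells to each other: the cadherin genes Cdh1 and Cdh2, the catenin genes Ctnna1 and Ctnnd1, the connexin genes Gja1, Gja4 and Gjc1, the scaffold gene Tjp1 and the nectin gene Nectin2. They were taken by symbol from a table of 25164 genes, and all 9 were found. Their levels were compared between 2 groups of whole mouse ovaries at day 1, the age that the sample titles give, with 3 RNA sequencing libraries in each group. All animals were of the C57BL/6 strain. The first group carried floxed Hnrnpl alleles together with a Stra8-cre transgene (cKO), and the second is labelled wild type. Hnrnpl encodes a splicing regulator that binds RNA, and the Stra8 promoter drives Cre recombinase in germ cells, so the somatic cells of a cKO ovary are not the cells in which the gene is targeted. Whether the wild type animals carried Cre or floxed alleles was not stated in the labels. The labels' protocol text speaks of a hormone challenge before lysis without saying what it was or which animals had it. The labels do not say whether replicate libraries are separate animals, so p-values measure only the spread between these libraries, which may be technical.

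Cadherins are membrane proteins that bind their own kind on the neighbouring cell, and inside the cell they hold catenins, which tie them to the actin skeleton. Connexins form gap junctions, channels through which small molecules pass between cells. In the newborn mouse ovary, cysts of germ cells break down and single oocytes become enclosed by pregranulosa cells, and from then on the oocyte depends on contact with its granulosa cells. The comparison asks how the transcripts of these contacts stand when Hnrnpl is targeted in germ cells.

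Levels were given as FPKM, fragments scaled to transcript length and to mapped fragments, so that levels of different genes can be set beside each other. Depth, estimated from the smallest steps of FPKM, was lowest in cKO replicate 1 (7.2 M fragments, M standing for mega) and highest in wild type replicate 1 (14.4 M). In cKO replicate 1 the tested genes had a median of 8.4 FPKM, against 6.85 to 7.09 FPKM in the other 5 libraries, and its median log2 deviation was 0.346 in the shortest sixth of transcripts and 0.061 in the longest. For that reason values are also given after median-of-ratios scaling, which brings the typical gene to the same level in each library. That scaling divides each library by a single factor (log2 0.233 for cKO replicate 1), so the difference between short and long transcripts remains. In cKO replicate 1 it lowers Ctnnd1, Tjp1, Cdh2 and Cdh1 (6362, 7049, 4843 and 4430 bases) by more than the median deviation at their length (0.061 to 0.142). Gja1, Ctnna1 and Gjc1 (3889, 3733 and 3413 bases) are also lowered by more than theirs (0.197). It lowers Gja4 (1685 bases, 0.346) and Nectin2 (2735 bases, 0.241) by less. No values are given after a correction for length. For the targeted gene, Hnrnpl, cKO values were 101, 81.5 and 85.2 FPKM, against wild type values of 104, 93.8 and 102 FPKM. On the log2 scale the difference was -0.17 (SE 0.13) and did not pass (limma adjusted p = 0.571). Scaled by median of ratios, Hnrnpl had 85.5, 84.2 and 87.5 against 105, 95.4 and 107 FPKM with no overlap, and the difference was -0.26 (limma adjusted p = 0.15). Without cKO replicate 1 it was -0.26 as well (limma adjusted p = 0.180), and without cKO replicate 2 -0.11 (0.737). A gene-level value from a tissue that also holds somatic cells is a weak check of the labels.

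None of the 9 junction genes passed the test of cKO against wild type, which limma ran over the 12442 genes averaging 1 FPKM or more, calling a gene at a Benjamini-Hochberg adjusted p under 0.05. In that test 15 genes, or 0.121% of those tested, were called: 6 higher in cKO (0.0482%) and 9 lower (0.0723%). At an unadjusted p under 0.05 there were 2 of the 9, Cdh1 and Cdh2, against 14.2% of all tested genes. These were also the only 2 of the 9 whose cKO and wild type values did not overlap, and 22.6% of all tested genes did not overlap either (15.5% with cKO higher, as Cdh1, and 7.03% with cKO lower, as Cdh2), so the count of 2 is near the background. With 1 library left out, members without overlap numbered 5, 4 and 2 when cKO replicate 1, 2 or 3 was dropped, beside 34.9%, 32.8% and 37.7% of tested genes. They numbered 2, 2 and 3 when wild type replicate 1, 2 or 3 was dropped, beside 30.4%, 32.0% and 29.0%. Of the 9 log2 fold changes 4 were positive and 5 negative, where 65.2% of all tested genes were positive, with a median of -0.01 beside 0.08 over all tested genes. After scaling by median of ratios 2 were positive and 7 negative, where 50.0% of tested genes were positive, with a median of -0.10 beside 0. Scaled by median of ratios, 0 of the 9 were called, where 1.29% of tested genes were (0.764% higher and 0.53% lower). There 4 of the 9 did not overlap, Cdh1 higher (12.6% of tested genes) and Cdh2, Gjc1 and Nectin2 lower (13.0%). On that scale 3 of the 9, Cdh1, Cdh2 and Gjc1, had an unadjusted p under 0.05, against 18.9% of all tested genes.

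**Figure D1:**
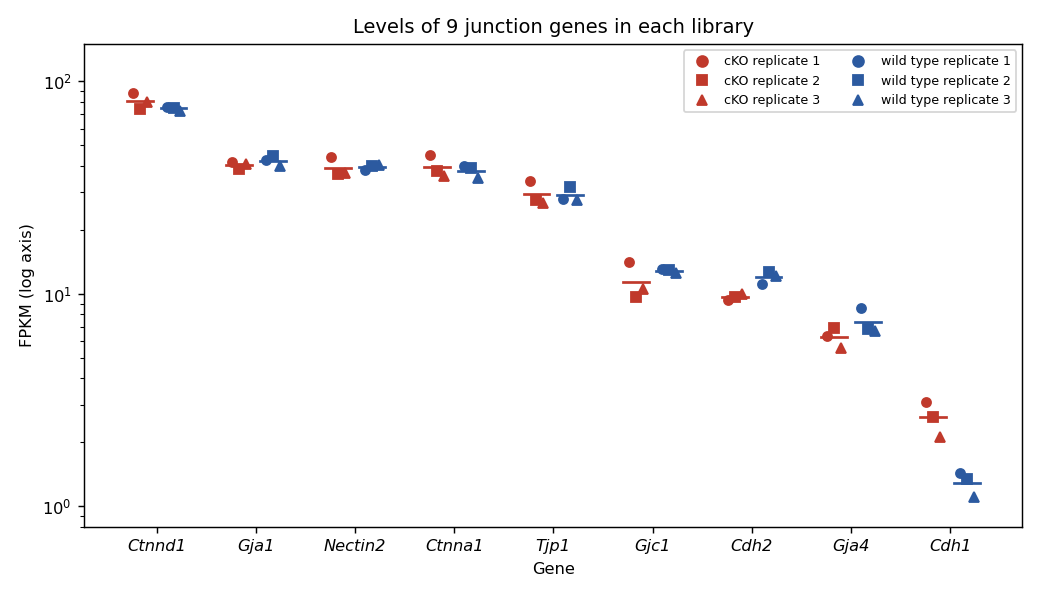
FPKM on a log axis of the 9 junction genes in each library, with red marks for cKO, blue marks for wild type, a mark shape for each replicate number and bars at the group means. The groups lie apart for Cdh1 and Cdh2 and overlap for the other 7 genes.

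The order of the 9 levels was nearly the same in both groups. Ctnnd1 was the most abundant, averaging 81.0 ± 7.10 FPKM in cKO libraries against 74.6 ± 1.57 FPKM in the others (SD over 3 libraries), and its values lay above those of every other member. Gja1, Nectin2 and Ctnna1 followed at means of 37.9 to 42.3 FPKM, and neighbours in that order overlapped. In wild type the values of Gja1 all lay above those of Ctnna1, which was not so in cKO. Tjp1 came next at 29.4 ± 3.83 and 29.2 ± 2.23 FPKM. Gjc1 and Cdh2 overlapped with each other in both groups, although Gjc1 was the higher of the pair in 3 of 3 libraries of each. Gja4 lay below them and Cdh1 lowest of all.

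Cdh1 encodes E-cadherin, the cadherin of epithelia that is also found on germ cells. Its cKO values were 3.10, 2.63 and 2.12 FPKM, against wild type values of 1.43, 1.35 and 1.1 FPKM. Every cKO value lay above every wild type value, and the means were 2.62 ± 0.486 and 1.29 ± 0.172 FPKM (SD, n = 3), a ratio of 2.03. The log2 fold change, taken on log2(FPKM + 1), where the change of so low a gene is understated, was 0.65 (SE 0.15, 95% interval 0.30 to 1.0). It did not pass over all genes (limma adjusted p = 0.148), and 2.08% of the tested genes had a larger positive change. By an exact permutation test (two-sided) p was 0.1, the smallest possible with 3 libraries on each side. Scaled by median of ratios, Cdh1 had 2.63, 2.72 and 2.18 against 1.45, 1.37 and 1.16 FPKM, so the gap between the groups remained, with a log2 fold change of 0.59 (limma adjusted p = 0.0806). Over the 12 alternatives that kept Cdh1 the adjusted p ran from 0.0614 to 0.461 and the log2 fold change from 0.56 to 0.96. Each Cdh1 value rested on an estimated 54 to 126 fragments, the fewest in wild type replicate 3.

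Cdh2 encodes N-cadherin, a cadherin of granulosa cells and of many mesenchymal and neural cells. Its cKO values were 9.40, 9.64 and 10 FPKM, against wild type values of 11.1, 12.7 and 12.1 FPKM. All cKO values lay below all wild type values, in the other direction from Cdh1 and by a smaller ratio. The means were 9.68 ± 0.303 and 12.0 ± 0.822 FPKM (SD, n = 3), and the log2 fold change of -0.28 (SE 0.09, 95% interval -0.50 to -0.06) did not pass (limma adjusted p = 0.261; 0.137 after median-of-ratios scaling). A lower change was seen in 6.48% of the tested genes. In the annotation of GRCm38, the assembly that mm10 denotes, Cdh1 lies on chromosome 8 from 106603350 to 106670247 and Cdh2 on chromosome 18 from 16588877 to 16809246.

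The ratio of Cdh1 to Cdh2 within a library does not change when the library is scaled by a single factor, as in median-of-ratios scaling. Quantile normalization can change it. It was 0.330, 0.273 and 0.213 in the cKO libraries and 0.129, 0.106 and 0.0908 in the wild type libraries. Cdh1 thus made up 17.5% to 24.8% of the summed FPKM of both genes in cKO and 8.33% to 11.4% in wild type, with no overlap. The sum itself, 12.1 to 12.5 FPKM in cKO and 12.5 to 14.1 FPKM in wild type, met at 12.5 FPKM. The ratio was formed from the 2 members with the smallest p, so it is given as a description with no test.

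**Figure D2:**
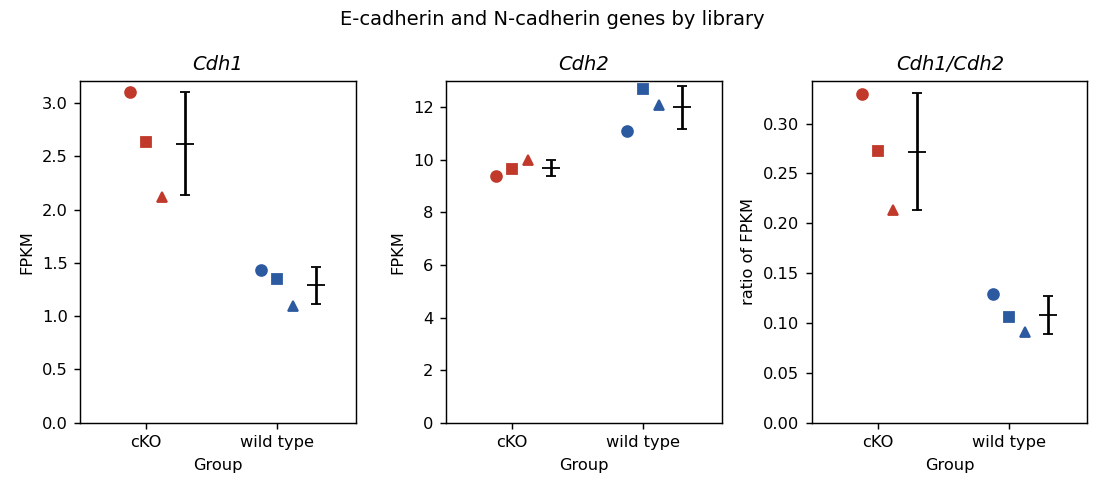
FPKM of Cdh1, FPKM of Cdh2 and their ratio in each cKO (red) and wild type (blue) library, with black bars for the mean ± SD of 3 libraries. Cdh1 lay higher in cKO, at 2.12 to 3.10 FPKM, Cdh2 lay lower, at 9.40 to 10 FPKM, and the ratio was 0.213 to 0.330 in cKO against 0.0908 to 0.129 in wild type.

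Both catenin genes of the set were abundant, and both overlapped between the groups. Ctnnd1 encodes p120 catenin, which binds the cadherin tail next to the membrane and keeps cadherin at the surface. The cKO libraries gave 88.5, 74.3 and 80.2 FPKM, against wild type values of 75.7, 75.2 and 72.8 FPKM. The highest value was that of cKO replicate 1, and after median-of-ratios scaling that library was the lowest of its group at 75.3 FPKM. Its log2 fold change was 0.11 (SE 0.12; limma adjusted p = 0.674), with a 95% interval from -0.16 to 0.39. Ctnna1 encodes alpha-catenin, which connects the cadherin complex to actin. In cKO it had 44.8, 37.9 and 35.7 FPKM, against wild type values of 39.8, 38.9 and 35.1 FPKM, again with cKO replicate 1 on top and the rest intermixed. The log2 fold change was 0.05 (95% interval -0.23 to 0.34), and it was -0.03 (-0.20 to 0.13) after median-of-ratios scaling.

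The 3 connexin genes all had negative log2 fold changes, and none passed. Gja1 encodes connexin Cx43, the gap junction protein that couples granulosa cells to each other. The cKO libraries gave 41.9, 38.6 and 41.0 FPKM, against wild type values of 42.5, 44.4 and 39.9 FPKM, so 2 of the cKO values fell within the wild type range. The log2 fold change was -0.06 (SE 0.10; limma adjusted p = 0.802), and the 95% interval of -0.30 to 0.18 corresponds to 0.811 to 1.13 times the wild type value of FPKM + 1. It was -0.15 (95% interval -0.34 to 0.05) after median-of-ratios scaling and -0.20 after quantile normalization. Without cKO replicate 2 or wild type replicate 2 it was -0.03, and without wild type replicate 3 -0.10.

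Gja4 encodes connexin Cx37, which forms the channels between oocyte and granulosa cells and is also made by endothelial cells. The cKO libraries gave 6.32, 6.91 and 5.54 FPKM, and those of wild type 8.61, 6.84 and 6.67 FPKM. The groups overlapped through cKO replicate 2, and wild type replicate 1 was the highest library. The log2 fold change of -0.20 (SE 0.13, 95% interval -0.49 to 0.09; limma adjusted p = 0.483) has a lower bound of 0.710 times the wild type value of FPKM + 1, and of 0.675 times after median-of-ratios scaling. Without wild type replicate 1 it was -0.10, and without cKO replicate 3 -0.13. Gja4 has the shortest transcript of the 9 at 1685 bases and rested on an estimated 77 to 209 fragments per library.

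Gjc1 encodes connexin Cx45, a protein of vascular and cardiac gap junctions that is also made in follicles. Its cKO values were 14.1, 9.69 and 10.5 FPKM, against wild type values of 13.1, 12.9 and 12.5 FPKM. The wild type libraries lay close together, 2 cKO libraries lay below them and cKO replicate 1 lay above them. The log2 fold change was -0.17 (SE 0.14; limma adjusted p = 0.587). Scaled by median of ratios, Gjc1 had 12.0, 10 and 10.8 against 13.2, 13.1 and 13.1 FPKM, and its groups no longer overlapped, as in 25.6% of tested genes. Its log2 fold change was then -0.25 (SE 0.08), short of a call (limma adjusted p = 0.173). Without cKO replicate 1 it was -0.32 (limma adjusted p = 0.129), and without cKO replicate 2 -0.07 (0.828).

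The shares of the 3 connexin genes overlapped between the groups. Gja1 held 67.2% to 71.9% of the summed FPKM of the 3 genes in cKO and 66.2% to 69.3% in wild type. Gja4 held 9.71% to 12.5% in cKO against 10.7% to 13.4%, and Gjc1 17.6% to 22.6% against 20.1% to 21.1%. The ratio of Gja4 to Gja1 was 0.151, 0.179 and 0.135 for cKO, against 0.203, 0.154 and 0.167 for wild type, and the groups overlapped. On GRCm38 Gja1 lies on chromosome 10 from 56377300 to 56390419, Gja4 on chromosome 4 from 127311420 to 127314039 and Gjc1 on chromosome 11 from 102799477 to 102819686.

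In the values as deposited, Tjp1 and Nectin2 had the log2 fold changes nearest to 0 of the 9; after median-of-ratios scaling Ctnna1 (-0.03) and Ctnnd1 (0.03) had. Tjp1 encodes the scaffold protein ZO-1, which anchors junction proteins, connexins among them, to the actin skeleton. In cKO it had 33.8, 27.6 and 26.8 FPKM, against wild type values of 28.0, 31.7 and 27.7 FPKM, with both groups spread over the same range. Its log2 fold change was 0.01 (95% interval -0.28 to 0.30). Nectin2 encodes an immunoglobulin-like adhesion protein that binds afadin and helps to place adherens junctions. Its cKO values were 44.2, 36.6 and 37.0 FPKM, against wild type values of 38.1, 40.0 and 40.3 FPKM. The log2 fold change was -0.01 (95% interval -0.28 to 0.26). After median-of-ratios scaling its cKO values of 37.6, 37.8 and 38.0 FPKM lay just under the wild type values of 38.5, 40.7 and 42.5 FPKM (log2 fold change -0.10; limma adjusted p = 0.491).

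**Figure D3:**
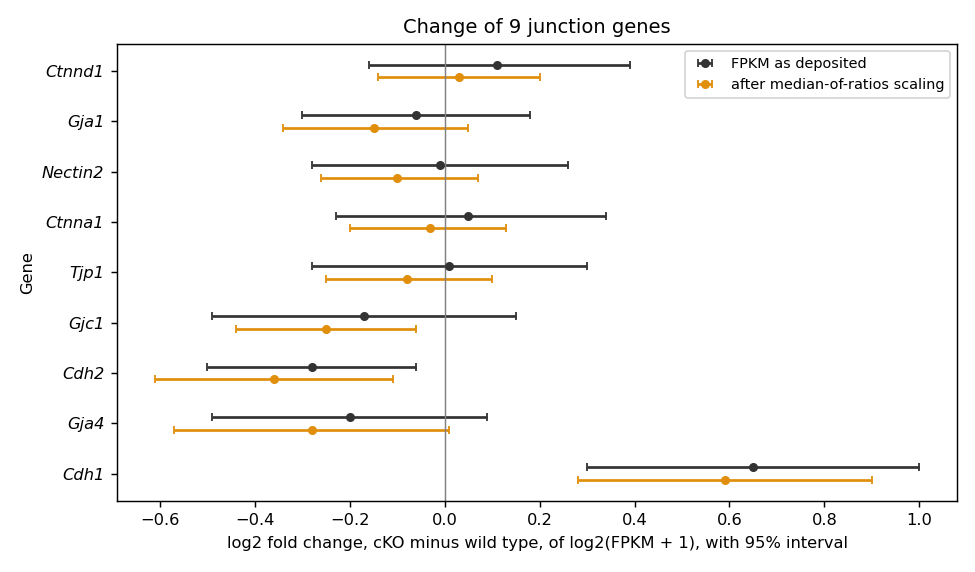
Log2 fold change of log2(FPKM + 1), cKO minus wild type, with its 95% interval from limma for the 9 junction genes, before (black) and after (orange) median-of-ratios scaling. Before scaling the intervals of Cdh1 (0.30 to 1.0) and Cdh2 (-0.50 to -0.06) lie away from 0 and the other 7 include it, and after scaling that of Gjc1 (-0.44 to -0.06) lies away from 0 as well; the intervals are not adjusted for the number of genes.

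Other genes of the same junctions were counted from 5 lists of 107 genes, of which 54 were tested. None passed (limma; 0.121% of all tested genes did). At an unadjusted p under 0.05 there were 10 of 54, or 18.5%, beside 14.2% of all tested genes. After median-of-ratios scaling 2 fell, both cadherins, where 0.53% of all tested genes did.

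Of 21 other cadherin genes 16 had a mean under 1 FPKM and 5 were tested. All 5 had negative log2 fold changes (median -0.34), where 65.2% of all tested genes were positive. Cdh11, a cadherin of mesenchymal cells, had 26.3, 24.2 and 24.8 FPKM in cKO, against 31.4, 33.2 and 31.3 FPKM in wild type. Cdh3 encodes P-cadherin, an epithelial cadherin, and stood at 5.04, 3.46 and 3.78 against 7.44, 5.59 and 6.77 FPKM. Both lay lower in cKO with no overlap, did not pass in the values as deposited (limma adjusted p = 0.207 and 0.182), and fell after median-of-ratios scaling, with log2 fold changes of -0.42 (limma adjusted p = 0.0479) and -0.66 (0.043). Cdh5, the cadherin of endothelium, averaged 19.1 ± 1.64 against 24.8 ± 3.20 FPKM (SD over 3 libraries) and did not pass (limma adjusted p = 0.281, and 0.0646 after scaling). Its groups did not overlap either, though narrowly, with 21.0 FPKM the highest cKO value and 21.1 FPKM the lowest wild type value. Thus 3 of the 5 lay lower in cKO with no overlap, beside 7.03% of all tested genes. After median-of-ratios scaling 3 of the 5 did so, beside 13.0%. Cdh23 and Cdh24, named after their values were seen, overlapped between the groups, with log2 fold changes of -0.04 (SE 0.10) and -0.28 (SE 0.20). Cdh2 thus had the sign of the other tested cadherins, of which Cdh23 lay near 0, and Cdh1 the opposite one. The contrast was seen in the data and not tested.

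The other catenins and adherens junction partners had 22 tested members, 16 positive and 6 negative, where 65.2% of all tested genes were positive, with a median of 0.08, equal to that of all tested genes. Scaling by median of ratios gave 11 positive and 11 negative, where 50.0% of tested genes were positive. Ctnnb1, beta-catenin, is named here after its values were seen, since it is the partner that joins cadherin to alpha-catenin. In cKO it had 167, 134 and 135 FPKM, against wild type values of 124, 130 and 123 FPKM, with no overlap and a log2 fold change of 0.21 (limma adjusted p = 0.531). Camsap3, a microtubule minus-end protein of adherens junctions, averaged 14.6 ± 2.39 FPKM in cKO against 11 ± 0.638 FPKM (SD over 3 libraries), which did not pass (limma adjusted p = 0.270). Ctnna3, another alpha-catenin gene, was low and uneven at 2.46, 2.90 and 0.932 FPKM in cKO and 0.422, 0.8 and 1.1 FPKM in wild type, and the groups overlapped. Ssx2ip, a protein that binds afadin, had a log2 fold change of 0.34 (limma adjusted p = 0.351).

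Hardly any other connexin was measured in these ovaries. Of 20 further connexin and pannexin genes 18 had a mean under 1 FPKM, with 0.788 FPKM the highest single value among them, and Gjb6 and Gjd2 were listed at 0 in all 6 libraries. That highest value belonged to Gja5, a connexin of arterial endothelium, named after its values were seen. It was listed at 0.0948, 0 and 0.0842 FPKM in cKO and at 0.788, 0.440 and 0.465 FPKM in wild type, below the level that was tested. Panx1, a pannexin channel gene, was tested and averaged 6.59 ± 1.66 FPKM in cKO against 6.08 ± 0.771 FPKM in the others (SD over 3 libraries), which did not pass (limma adjusted p = 0.824).

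Tight junction genes other than Tjp1 had 20 tested members, 8 positive and 12 negative, with a median of -0.07 (7 and 13 after median-of-ratios scaling). Cldn12, a claudin, had 6.52, 6.08 and 5.73 FPKM in cKO, against 4.66, 4.35 and 4.90 FPKM in wild type (limma adjusted p = 0.208), with no overlap. Marveld2, the tricellulin of tricellular contacts, had a log2 fold change of 0.41 (limma adjusted p = 0.274), and Cldn15, a claudin, one of -0.46 (limma adjusted p = 0.330). Cldn5, the claudin of endothelium, named after its values were seen, was called in 1 alternative, without cKO replicate 1 (log2 fold change -0.65, limma adjusted p = 0.0466); with it the log2 fold change was -0.40 (0.429). Desmosome genes had 5 tested members of 12 and a median of 0.01. Their smallest p belonged to Pkp2, a plakophilin, Dsp, desmoplakin, and Dsc2, a desmocollin, with log2 fold changes of 0.35, -0.24 and 0.10 and adjusted p of 0.380, 0.387 and 0.787 (limma).

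**Figure D4:**
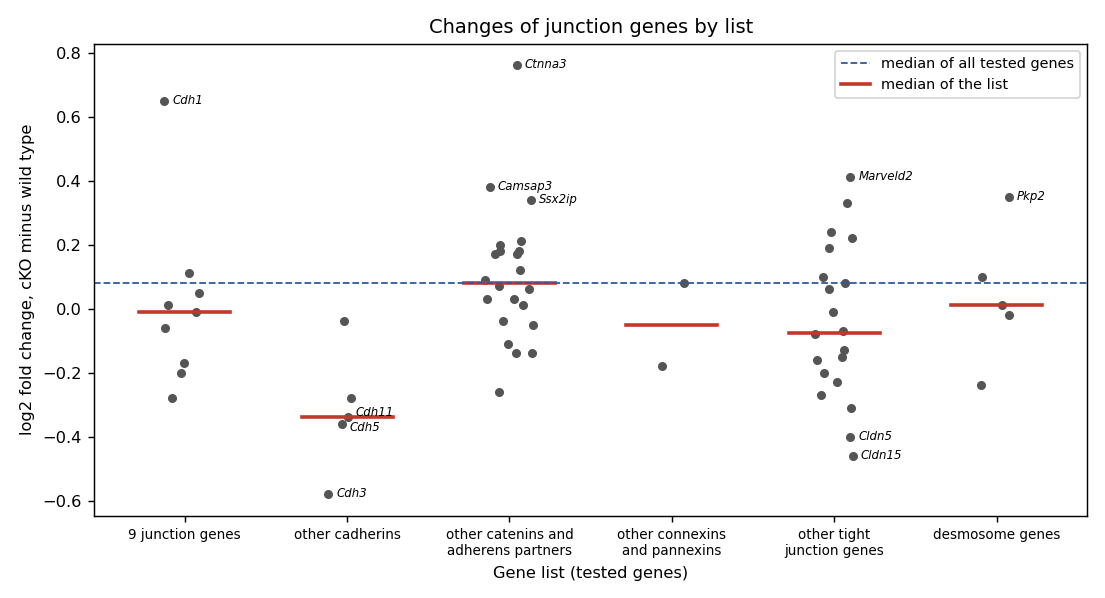
Log2 fold change, cKO minus wild type, of each tested gene of the 9 junction genes and of 5 further junction lists, with red bars at list medians and a dashed line at 0.08, the median of all tested genes. All 5 tested other cadherins lie below 0, while Cdh1 lies at 0.65; points are spread sideways only to be seen.

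Whole ovary holds several cell types, and in bulk tissue fewer cells of a type and less RNA per cell cannot be told apart. Marker levels are therefore given beside the cadherin values. The 14 germ cell markers summed to 435, 325 and 248 FPKM in cKO and to 204, 218 and 206 FPKM in wild type. Of their log2 fold changes 13 of 14 were positive, where 65.2% of all tested genes were, with a median of 0.59. Ddx4, a defining gene of germ cells, was negative at -0.07. Tex14 (0.02), Nobox (0.08), Stk31 (0.11) and Figla (0.13) were positive but overlapped between the groups. Scaled by median of ratios, the sums were 254 to 370 against 207 to 222 FPKM and 11 of 14 changes were positive, with Ddx4 at -0.14, Tex14 at -0.04 and Nobox at -0.01. Cdh1 and the summed germ cell markers were thus both above the wild type range in all 3 cKO libraries. The summed pregranulosa and granulosa markers, given below, were as well. Of the single germ cell markers 7 of 14 were, where 15.5% of all tested genes were. Epcam, an adhesion gene of epithelia, stood at 19.7, 15.4 and 13.6 against 11.9, 12.3 and 13.0 FPKM, and the 11 measured surface epithelium markers had 9 negative changes and a median of -0.34. The 11 markers summed to 471 to 677 FPKM in cKO and 570 to 586 FPKM in wild type. Aldh1a1, the most abundant of them, was higher in cKO with no overlap, at 343, 231 and 241 against 217, 221 and 216 FPKM. Of the 11 markers Upk1b fell (log2 fold change -1.47, limma adjusted p = 0.0428).

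Stroma markers, 9 of 10 negative, summed to 871 to 972 FPKM in cKO and 1120 to 1170 FPKM in wild type. Endothelial markers, 12 of 12 negative, summed to 82.2 to 108 and 106 to 131 FPKM. After median-of-ratios scaling the endothelial sums were 85.0 to 91.7 and 112 to 132 FPKM, with no overlap. Pericyte and smooth muscle markers, 9 of 9 tested negative, summed to 54.8 to 63.3 and 74.4 to 81.1 FPKM. Pregranulosa and granulosa markers, 9 positive and 5 negative, summed to 477 to 658 and 453 to 458 FPKM. Scaled by median of ratios they had 6 positive and 8 negative changes and summed to 493 to 560 and 458 to 482 FPKM. None of the genes in these 6 marker lists was listed at 0 in all libraries, and Foxl2, a defining gene of granulosa cells, stood at 64.9 to 86.5 FPKM in cKO and 57.5 to 60.2 FPKM in wild type. The part of these marker levels in the values of Cdh1, Cdh2, Cdh3, Cdh5, Cdh11 and Gja4 was not tested.

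**Figure D5:**
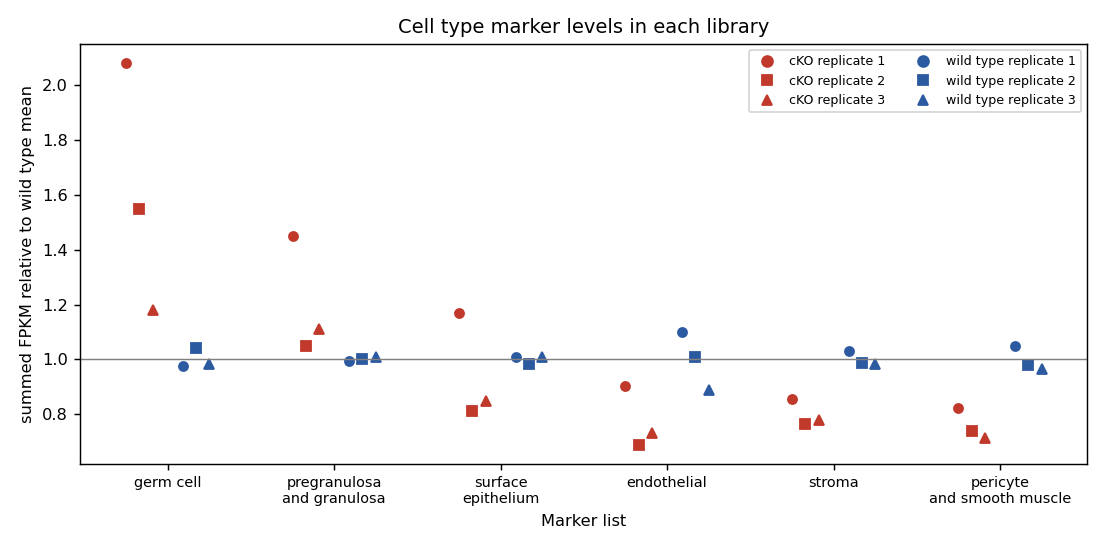
Summed FPKM of 6 marker lists in each library, divided by the mean of the 3 wild type libraries, in red for cKO and blue for wild type. Germ cell markers lie at 1.18 to 2.08 in cKO, and stroma and pericyte markers at 0.712 to 0.855, with cKO replicate 1 the highest of its group in all 6 lists.

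The genes whose pattern over the 6 libraries was most like that of Cdh1 and of Cdh2, the members with the smallest p, were searched among 7699 genes averaging 5 FPKM or more. Likeness was the mean absolute difference of the deviations of log2(FPKM + 1) from the gene's own mean. On that scale the change of so low a gene as Cdh1 is understated, so a like pattern need not mean a like ratio of FPKM. Among those nearest to Cdh1 were Sesn2 (0.028), a stress-induced sestrin, and Rbm38 (0.0429), an RNA-binding protein. Sesn2 had 8.55, 6.86 and 6.14 FPKM in cKO, against 4.58, 4.4 and 3.97 FPKM in wild type, with its libraries in the same order as those of Cdh1. After median-of-ratios scaling Sesn2 and Rbm38 were called (limma adjusted p = 0.0387 and 0.0317), where 0.764% of tested genes were called higher. Cdh1 was not (0.0806). Among those nearest to Cdh2 were Afap1l2 (0.0277), an actin filament associated protein, and Mamld1 (0.0343). Afap1l2 stood at 4.87, 4.91 and 5.30 against 6.05, 6.94 and 6.85 FPKM. These values are a description over 6 libraries, with no test.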

How the data were processed

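RNA sequencing libraries of whole ovaries, 3 cKO and 3 wild type, were compared. The authors deposited 1 table of FPKM values for 25164 gene symbols, and each of its 6 columns matched 1 sample title. Per the submitters' processing notes, STAR 2.7.11a, HISAT2 2.2.1 and featureCounts 2.0.6 were used on mm10, with no roles given; the program behind the FPKM values is not stated. Sequencing depth was estimated from the smallest FPKM steps of 2437 genes with 1 GENCODE M21 transcript of at least 1500 bases, assuming fragments of 200 bases; fragments per gene use the longest transcript. Genes averaging 1 FPKM or more were tested on log2(FPKM + 1) with limma 3.58.1 in R 4.3.3 (intensity trend, two-sided, Benjamini-Hochberg over all tested genes), after a check on simulated data. Coordinates are from RefSeq (GRCm38.p6). Members, lists and tests were chosen with earlier results of these data known. Named genes are the members, Hnrnpl, the 3 genes with the smallest p in each further list, and the likeness genes. Alternatives tried were scaling by median of ratios or by quantiles, filters at 0 and 5 FPKM, a smaller pseudocount (0.1 FPKM), a fit with no trend, one with the replicate number as a block, and fits without each library in turn. Muc16 was not found in the table. Some genes that the rule names are not reported here.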

Additional observations from a re-analysis of the deposited data

How the results depend on the processing

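Under all 13 alternatives 0 of the 9 junction genes were called. The count over all genes, 15, was 34 with a pseudocount of 0.1 FPKM, 5 with no filter, 23 when only genes averaging 5 FPKM or more were kept (which leaves Cdh1 out), 161 after median-of-ratios scaling, 236 after quantile normalization, 5 with no intensity trend, 2 with the replicate block and 2 to 89 without 1 library (89, 4 and 74 without cKO replicate 1, 2 and 3, and 2, 2 and 6 without wild type replicate 1, 2 and 3). Of other junction genes 2 were called after median-of-ratios scaling and 2 after quantile normalization, and 0 to 1 without 1 library. The count of members whose groups do not overlap, an alternative chosen after seeing the data, was 4 after median-of-ratios scaling and 2 to 5 without 1 library; Cdh1 and Cdh2 were among them each time. It was 5 without cKO replicate 1, where 34.9% of tested genes did not overlap, and 4 without cKO replicate 2 (32.8%). Uncalled log2 fold changes near 0 changed sign, and the cause was not tested. After median-of-ratios scaling and quantile normalization Ctnna1 had -0.03 and -0.09 and Tjp1 -0.08 and -0.12, and Ctnnd1 had -0.03 after the latter. Without 1 library Ctnna1 ran from -0.04 to 0.12, Tjp1 from -0.09 to 0.07, Nectin2 from -0.10 to 0.04, Panx1 from -0.09 to 0.19 and Dsc2 from -0.06 to 0.19. In the labels same-numbered libraries share only a number. Their deviations correlated at -0.011, 0.039 and 0.068, and those of differently numbered libraries at -0.066 to 0.028. With 3 libraries a group these values cannot settle whether libraries were paired. The replicate block changed no call among the junction genes. Depth limits Cdh1 and Gja4 most, and 3 libraries a group cannot give an exact p under 0.1.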
